A study of Rattus norvegicus with 145 samples.

Results

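Liver transcriptomes of male rats gavaged daily for 28 days with 1500 mg/kg/day (mkd) acetamide (5 rats) were compared with those of males given the water vehicle (5 rats). The 10 libraries are all samples of that sex, duration and dose pair among the 145 of the series, and they were taken by their sample labels, not by any measured value. All 10 were Wistar rats of the Crl:WI strain, and the label gives 8 to 10 weeks, which the study's methods give as the age at dosing, so that livers were taken at an older age. RNA came from the left liver lobe, a mixture of hepatocytes and other liver cells. Rats were housed in pairs and the labels do not say which shared a cage, so each rat counts as 1 replicate. Other males of 28 days received 300, 500, 750 or 1000 mkd (5 rats each), and further groups received 1500 mkd for 7 days or were female. The labels tie the 28-day control males to the first exposure experiment in one field, while their strain, duration and titles are those of the second, and they were used here as the titles place them.

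Acetamide is a small, water-soluble amide that is known to cause liver tumours in rats at high doses. Most hepatocytes of an adult liver are out of the cell cycle and return to it after loss of tissue or in response to growth factors. A cell that divides first switches on genes for starting and copying DNA, many of them driven by E2F factors, and later a set of mitotic genes for the spindle, the kinetochore and chromosome segregation. In resting cells the DREAM complex holds the mitotic genes down through a short promoter element, the cell cycle genes homology region (CHR), and B-MYB, NF-Y and FOXM1 act at many of the same promoters when the cells cycle.

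Promoters of 3 mitotic and 2 replication genes are shown because cell cycle genes gave many of the calls below. Each sequence runs 5′ to 3′ from 250 bases before to 50 bases after the start of the gene, as given by RefSeq on GRCr8. They belong to Cdk1 (chr20:19265043-19265342, plus strand), Kif22 (chr1:191080829-191081128, minus strand), Ndc80 (chr9:118887480-118887779, minus strand), Cdc7 (chr14:2969607-2969906, minus strand) and Cdc45 (chr11:95689928-95690227, plus strand). In every sequence, capitals mark the CHR letters TTTGAA, the CCAAT box (CCAAT) and the E2F letters (TTTGGCGC, TTTCGCGC, TTTGGCGG or TTTCCCGC), each on either strand.
Cdk1: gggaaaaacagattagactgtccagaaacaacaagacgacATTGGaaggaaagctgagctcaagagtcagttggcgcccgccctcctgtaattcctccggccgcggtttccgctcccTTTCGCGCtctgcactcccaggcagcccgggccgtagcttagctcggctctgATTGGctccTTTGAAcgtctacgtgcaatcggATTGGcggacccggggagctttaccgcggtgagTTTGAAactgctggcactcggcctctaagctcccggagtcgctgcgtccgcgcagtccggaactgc
Kif22: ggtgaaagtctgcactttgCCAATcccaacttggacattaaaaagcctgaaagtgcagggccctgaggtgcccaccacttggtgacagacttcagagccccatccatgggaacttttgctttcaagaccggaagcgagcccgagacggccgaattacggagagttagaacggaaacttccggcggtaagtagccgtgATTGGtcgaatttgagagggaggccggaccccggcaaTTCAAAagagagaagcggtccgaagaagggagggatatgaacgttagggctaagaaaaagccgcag
Ndc80: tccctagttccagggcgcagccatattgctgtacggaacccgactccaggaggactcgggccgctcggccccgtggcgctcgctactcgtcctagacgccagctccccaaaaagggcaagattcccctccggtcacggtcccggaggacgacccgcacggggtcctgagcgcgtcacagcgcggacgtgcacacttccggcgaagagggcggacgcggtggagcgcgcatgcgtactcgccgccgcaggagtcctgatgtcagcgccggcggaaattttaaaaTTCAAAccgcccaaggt
Cdc7: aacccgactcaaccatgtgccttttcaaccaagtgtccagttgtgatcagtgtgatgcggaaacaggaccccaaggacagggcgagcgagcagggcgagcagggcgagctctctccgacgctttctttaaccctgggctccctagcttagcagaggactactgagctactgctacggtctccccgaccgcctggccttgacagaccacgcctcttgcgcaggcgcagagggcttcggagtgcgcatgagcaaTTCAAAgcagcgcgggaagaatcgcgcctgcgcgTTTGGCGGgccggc
Cdc45: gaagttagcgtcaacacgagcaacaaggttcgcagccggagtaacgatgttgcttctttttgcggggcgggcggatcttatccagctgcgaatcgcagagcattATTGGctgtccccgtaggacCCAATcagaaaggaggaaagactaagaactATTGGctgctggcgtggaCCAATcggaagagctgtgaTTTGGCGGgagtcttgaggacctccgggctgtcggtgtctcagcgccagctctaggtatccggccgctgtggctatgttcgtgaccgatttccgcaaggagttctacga
Cdk1, the kinase that drives entry into mitosis, held 2 CHR, 3 CCAAT and 1 E2F match. Kif22, a chromosome-arm kinesin, held 1 CHR and 2 CCAAT matches, and Ndc80, a kinetochore protein, held 1 CHR match only. Cdc7, the kinase that triggers the firing of licensed origins, held 1 CHR and 1 E2F match, and Cdc45, a part of the replicative helicase, held 4 CCAAT and 1 E2F match. A match is a run of letters in a window and not a shown binding site.

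Libraries held 25223612 to 31756800 gene reads in the controls and 23805669 to 39986531 in the treated rats, and 17337 genes were listed. One treated rat, replicate 3 (hereafter rat 3), stood apart from the other 9 rats. Its Spearman correlation with each of them over the genes tested was 0.918 to 0.935, against 0.963 to 0.988 among the other 9. In a quality-weighted fit its weight was 0.14, and those of the others were 0.806 to 1.85. By its label, rat 3 is the animal that the study names as an outlier in Ki67 labelling of the liver, far above all other rats. The study found no increase in its ALT, AST, mitotic index or liver weight and left it out of the dose modelling of Ki67. The comparison with controls is therefore given with and without rat 3.

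Hepatocyte markers were abundant in all 10 livers, as the tissue label says, but lower in rat 3. The 10 marker genes summed to 164990 to 206980 counts-per-million (CPM, on TMM-scaled library sizes) in the controls, 153910 to 189940 CPM in the other 4 treated rats and 84004 CPM in rat 3. Alb, the main plasma protein made by hepatocytes, stood at 55404 CPM in rat 3 and at 120030 to 159840 CPM in the controls. Rat 3 was at the same time high in markers of other cell types. Its 13 Kupffer cell and macrophage markers summed to 1486 CPM (controls 407 to 1025, other treated rats 690.5 to 1638), and its 10 endothelial markers to 395 CPM (controls 153 to 266). The 14 T and NK cell markers listed summed to 65.1 CPM (controls 17.5 to 38.2, other treated rats 27.0 to 45.2). The 6 cholangiocyte markers listed summed to 36.4 CPM (controls 9.79 to 17.7). For cholangiocyte markers the other treated rats also lay above all controls, at 19.3 to 26.1 CPM. Col1a2 and Hba1 were at 0 in all 10 rats, and B cell markers stayed at or under 1.03 CPM in sum. The 14 stellate cell and matrix markers listed summed to 622 CPM in rat 3 against 183 to 471 CPM in the controls. Treated rats 1 and 4 also lay above all controls in that sum, at 578 and 586 CPM, and treated rats 2 and 5 did not. The part of cell composition in the results below was not tested. In whole liver, fewer cells of a type and less RNA per cell cannot be told apart.

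With all 5 treated rats, 554 of 11279 genes tested (4.91%) were called past a 1.5-fold change in either direction with an adjusted p no higher than 0.05 by edgeR's quasi-likelihood test, which gave all calls described here unless DESeq2 is named. Of these 356 were higher (3.16%) and 198 lower (1.76%). Without rat 3 the count was 687 of 11303 (6.08%), and most calls were then falls, with 127 higher (1.12%) and 560 lower (4.95%). Both fits called 287 genes, 103 higher and 184 lower, each in the same direction. Only the fit with rat 3 called another 253 higher and 14 lower genes, and only the fit without it called 22 higher and 376 lower. Among the 356 higher genes, 291 had their highest level of all 10 rats in rat 3. Of the 560 genes lower without rat 3, rat 3 lay above the lowest control for 344 and above the control mean for 207. The median log2 fold change of called genes was 1.38 for rises and -0.80 for falls with rat 3, and 0.97 and -0.87 without it, and over all genes tested it was 0.07 and -0.0015.

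The split between rises and falls moved with the settings too. With all 5 treated rats, it was 399 higher and 342 lower by DESeq2, 276 and 271 with no filter, 241 and 222 with at least 10 counts in every rat, and 43 and 167 when only these 2 groups were fitted. The total was 226 without control rat 2, 312 without treated rat 1, 343 without control rat 3 and 366 without control rat 4. In the fit without rat 3, leaving out treated rat 1 or 2 as well gave 0 calls by edgeR (2671 and 2520 genes at an unadjusted p under 0.05), and the total was 284 without control rat 2, 396 without treated rat 5 and 416 without control rat 3.

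**Figure D1:**
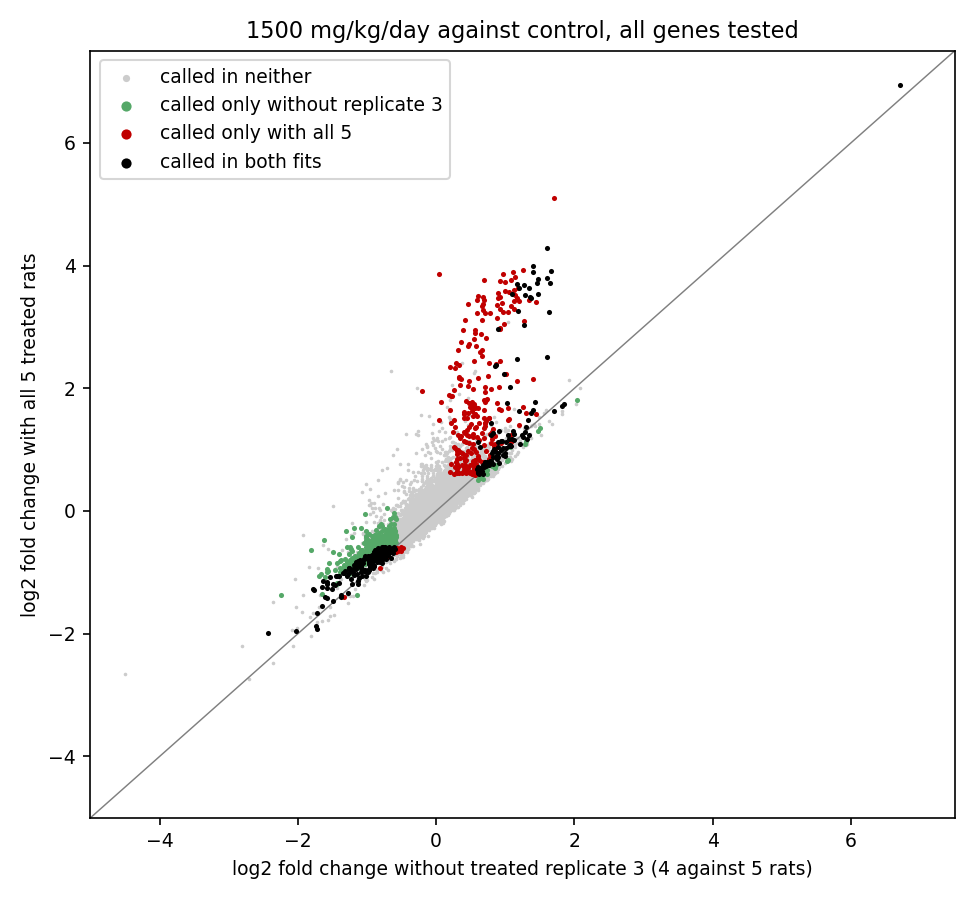
Log2 fold change of each gene tested at 1500 mkd against control without rat 3 (horizontal axis) and with all 5 treated rats (vertical axis), coloured by which fit called it. The 253 genes called higher only with rat 3 lie mostly well above the diagonal of equal change, and the 376 called lower only without it lie at the lower left, mostly closer to 0 on the vertical axis.

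Cell cycle genes made up much of the rise with rat 3, and the level of most of them was highest in that rat. Over the 9 cell cycle lists together, 207 genes were tested, 115 were called higher with all 5 treated rats, 19 without rat 3, and 0 were called lower in either fit. In those fits 3.16% and 1.12% of all genes tested were higher. Rat 3 held the highest level for 183 of the 207, against 2909 of all 11279 genes tested. In treated rats 1, 2 and 4, 135, 130 and 115 of the 207 genes lay above the highest control, against 3521, 3560 and 2623 of the 11279 genes tested. In treated rat 5 the count was 24, against 3121 of all genes tested, and 78 of the 207 lay above the control mean. The lists were written with earlier results of these data known, so their counts are a description.

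**Figure D2:**
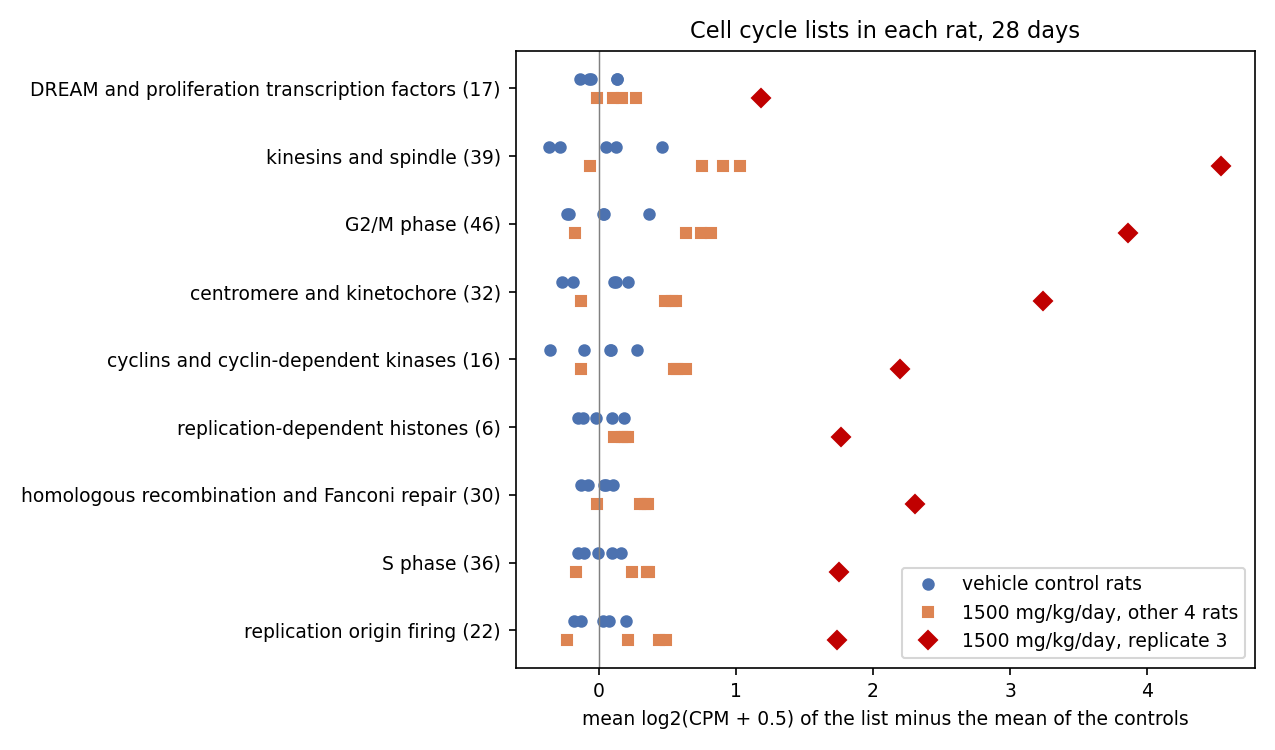
Score of each cell cycle list in each rat, the mean log2(CPM + 0.5) of its genes minus the control mean, for the 5 controls and 5 treated rats. Rat 3 lies above all others in each list, with its highest score in the kinesins and spindle list (4.54), and treated rat 5 lies among the controls there (-0.06).

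Spindle motors and their regulators had the largest median change of the 9 lists. All 39 tested members of the kinesins and spindle list were called higher with rat 3 (median log2 fold change 3.27) and 8 without it (median 0.90), and DESeq2 called 24 and 13. The list's score, the mean log2(CPM + 0.5) of its genes relative to the control mean, was 0.90, 0.76, 4.54, 1.03 and -0.06 in treated rats 1 to 5 and -0.36 to 0.46 in the controls. Rat 3 was thus far above the rest, rats 1, 2 and 4 lay above all controls, and rat 5 lay within them. Kif22 measured 2.68, 0.750, 1.48, 1.55 and 0.854 CPM in the controls and 4.93, 4.82, 100.2, 4.84 and 1.65 CPM in the treated rats. For Kif22 the log2 fold change was 3.99 ± 0.76 with all 5 (adjusted p = 0.00834), and without rat 3 it was 1.40 ± 0.38 (adjusted p = 0.0222). Aurkb, the kinase of the chromosomal passenger complex, measured 1.77, 1.01, 1.39, 0.673 and 0.483 CPM in the controls and 3.92, 3.40, 49.3, 4.10 and 1.03 CPM in the treated rats. In Kif22 and Aurkb, rats 1 to 4 lay above all controls and rat 5 did not. Aurkb differed from the controls by 3.53 ± 0.67 on the log2 scale with all 5 (adjusted p = 0.00834) and by 1.47 ± 0.37 without rat 3 (adjusted p = 0.0185). Kif20a, a kinesin of the central spindle, measured 7.34, 4.09, 6.20, 5.25 and 4.46 CPM in the controls and 12.6, 11.9, 171, 10.6 and 7.71 CPM in the treated rats. All 5 treated rats were above all controls for Kif20a, by a small margin in rat 5. Kif20a had a log2 fold change of 2.97 ± 0.59 with rat 3 (adjusted p = 0.00863) and of 0.90 ± 0.25 without it (adjusted p = 0.0233).

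Of the 46 G2/M genes tested, 35 were called higher with rat 3 and 11 without it, and the median log2 fold change went from 2.96 to 0.65. Cdk1 measured 3.65, 0.713, 2.51, 1.98 and 0.928 CPM in the controls and 6.24, 6.80, 112, 8.43 and 1.34 CPM in the treated rats. In the fit of all 5 treated rats Cdk1 changed by 3.78 ± 0.73 on the log2 scale (adjusted p = 0.00834), and by 1.47 ± 0.41 without rat 3 (adjusted p = 0.026). Ccnb1, the cyclin B1 partner of Cdk1, measured 3.72, 1.01, 2.34, 2.56 and 1.11 CPM in the controls and 7.52, 6.71, 137, 8.24 and 1.42 CPM in the treated rats. For both genes rats 1, 2 and 4 lay above the highest control and rat 5 lay inside the control range. Ccnb1 differed from the controls by 3.90 ± 0.77 on the log2 scale with all 5 (adjusted p = 0.00834) and by 1.40 ± 0.42 without rat 3 (adjusted p = 0.0335). Mki67, the gene of the proliferation marker Ki-67, measured 9.43, 3.56, 4.69, 4.88 and 3.04 CPM in the controls and 14.1, 10.1, 243, 12.9 and 3.07 CPM in the treated rats. Rat 3 was far above every other rat, and rat 5 was level with the lowest control. The change in Mki67 was 3.47 ± 0.73 on the log2 scale with rat 3 (adjusted p = 0.00938) and 0.90 ± 0.37 when rat 3 was left out (adjusted p = 0.104). Mki67 was therefore called only with rat 3. The transcription factor Foxm1, which drives many G2/M genes, measured 2.43, 2.14, 3.27, 3.33 and 2.97 CPM in the controls and 3.61, 4.17, 43.3, 4.47 and 2.86 CPM in the treated rats, with treated rat 5 inside the control range. Foxm1 differed from the controls by 2.05 ± 0.50 on the log2 scale with all 5 (adjusted p = 0.017) and by 0.35 ± 0.21 without rat 3 (adjusted p = 0.266).

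Kinetochore genes followed, with 23 of 32 tested called higher with rat 3 and 3 without it (Cenpt, Ndc80 and Knstrn). Cenpt, which ties the kinetochore to centromeric DNA, measured 0.800, 0.188, 0.594, 0.538 and 0.260 CPM in the controls and 2.33, 1.38, 25.1, 1.94 and 0.696 CPM in the treated rats. Fitted with and without rat 3, Cenpt gave log2 fold changes of 3.71 ± 0.71 (adjusted p = 0.00834) and 1.64 ± 0.43 (adjusted p = 0.0204). Ndc80 measured 0.452, 0.263, 0.297, 0.404 and 0.334 CPM in the controls and 1.32, 1.29, 19.1, 1.17 and 0.335 CPM in the treated rats. Rats 1 to 4 were above every control for both genes, whereas rat 5 was inside the control range. For Ndc80 the log2 fold change was 3.72 ± 0.71 with all 5 (adjusted p = 0.00834), and without rat 3 it was 1.46 ± 0.38 (adjusted p = 0.0204). The spindle checkpoint kinase Ttk, in contrast, was called only with rat 3, at 1.25, 0.3, 0.627, 0.673 and 0.780 CPM in the controls and 1.55, 1.63, 46.7, 2.16 and 0.644 CPM in the treated rats. Ttk differed from the controls by 3.85 ± 0.79 on the log2 scale with all 5 (adjusted p = 0.0088) and by 0.97 ± 0.37 without rat 3 (adjusted p = 0.0822).

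Of the genes that act before mitosis, fewer were called. In the S phase list (median log2 fold change 0.79) 11 of 36 genes were called with rat 3 and 0 without it by edgeR (8 at an unadjusted p under 0.05, and 1 called by DESeq2), with scores of 0.36, 0.35, 1.75, 0.24 and -0.16 in treated rats 1 to 5 and -0.15 to 0.16 in the controls. The replication origin list (median 0.98) gave 6 of 22 with rat 3 and 1 without it, Cdc7. Cdc7 measured 0.209, 0.0750, 0.165, 0.0336 and 0.148 CPM in the controls and 0.388, 0.344, 3.91, 0.293 and 0.284 CPM in the treated rats, and all 5 treated rats lay above all controls at these low levels. Cdc7 had a log2 fold change of 3.04 ± 0.65 with rat 3 (adjusted p = 0.00999) and of 1.27 ± 0.41 without it (adjusted p = 0.0463). Cdc45 measured 0.765, 0.675, 0.990, 1.18 and 0.371 CPM in the controls and 1.67, 1.68, 8.45, 1.32 and 0.954 CPM in the treated rats, with rat 5 inside the control range. Cdc45 differed from the controls by 1.82 ± 0.44 on the log2 scale with all 5 (adjusted p = 0.0157) and by 0.73 ± 0.30 without rat 3 (adjusted p = 0.102). Rrm2, a subunit of ribonucleotide reductase, measured 0.939, 0.0375, 0.693, 0.807 and 0.408 CPM in the controls and 1.63, 1.68, 30.0, 1.69 and 0.412 CPM in the treated rats. Its rise passed the test with rat 3 (3.60 ± 0.81, adjusted p = 0.0122) and not without it (1.13 ± 0.53, adjusted p = 0.155). Pcna, the sliding clamp of DNA polymerase, stood at 41.1 CPM in rat 3, 15.5 to 22.4 CPM in the other treated rats and 14.9 to 18.3 CPM in the controls, and it stayed under the 1.5-fold minimum (log2 fold change 0.56 ± 0.17). Ccne2, cyclin E2, which acts at entry into S phase, was a different case, at 4.80, 4.69, 3.60, 4.47 and 5.27 CPM in the controls and 6.94, 7.31, 9.15, 6.38 and 7.32 CPM in the treated rats. All 5 treated rats were above all controls, with rat 3 the highest but close to the others. With rat 3 its rise of 0.70 ± 0.16 was called (adjusted p = 0.0113), and without it the value of 0.55 ± 0.16 fell short of the fold minimum.

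DNA repair genes by homologous recombination and the Fanconi pathway gave 17 of 30 called higher with rat 3 and 0 without it by edgeR (7 at an unadjusted p under 0.05, and 0 called by DESeq2), with a score of 2.31 in rat 3 and -0.01 to 0.36 in the other treated rats. H2afx, the histone variant that is phosphorylated at DNA breaks, measured 9.77, 8.89, 7.82, 10.5 and 10.5 CPM in the controls and 13.8, 13.2, 152, 14.4 and 13.6 CPM in the treated rats. All treated rats exceeded all controls, and rat 3 stood far above the other 4. In the fit of all 5 treated rats H2afx changed by 2.13 ± 0.47 on the log2 scale (adjusted p = 0.0113), and by 0.47 ± 0.13 without rat 3 (adjusted p = 0.0249). Without rat 3 its rise was under the fold minimum. Chek2, a DNA damage kinase, measured 1.70, 2.06, 1.91, 1.82 and 1.60 CPM in the controls and 2.75, 2.24, 12.0, 2.49 and 2.04 CPM in the treated rats. The change in Chek2 was 1.25 ± 0.34 on the log2 scale with rat 3 (adjusted p = 0.0298) and 0.32 ± 0.20 when rat 3 was left out (adjusted p = 0.288). Parpbp, a suppressor of recombination, was at 24.8 CPM in rat 3 and at 0.490 to 2.02 CPM in the other treated rats (controls 0.338 to 1.35). Brca1 (1.03 ± 0.37, adjusted p = 0.0791) did not pass even with rat 3. The 6 replication-dependent histones tested gave 2 called with rat 3, Hist1h4b at 121 CPM (controls 24.9 to 44.6) and Hist3h2a at 45.9 CPM (controls 3.53 to 4.97). Histone genes are near-identical copies, so reads may be shared between them, and poly(A) selection captures few of these transcripts.

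Cell cycle brakes were also measured. Of 5 cyclin-dependent kinase inhibitors tested, Cdkn1c and Cdkn2c were called higher with rat 3, and Cdkn1c also without it. Cdkn1c, the inhibitor p57, measured 0.800, 0.488, 0.627, 0.606 and 0.446 CPM in the controls and 1.24, 1.51, 1.19, 0.953 and 1.19 CPM in the treated rats. Every treated rat was above every control and rat 3 was not the highest. Fitted with and without rat 3, Cdkn1c gave log2 fold changes of 1.02 ± 0.24 (adjusted p = 0.0155) and 0.96 ± 0.25 (adjusted p = 0.0204). Cdkn2c, the inhibitor p18, stood at 19.4 CPM in rat 3 against 2.09 to 3.65 CPM in the other treated rats and 1.51 to 3.10 CPM in the controls. The p53 target Cdkn1a, p21, ranged from 11.7 to 35.6 CPM in the controls and did not pass (0.65 ± 0.50, adjusted p = 0.41). In the whole p53 list 0 of 24 genes were called by edgeR with rat 3 (6 at an unadjusted p under 0.05, and 1 called by DESeq2), and 1 was called without it.

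The letters searched for stood in different shares of the promoters of the lists. A RefSeq promoter was found for 9135 of the 11279 genes tested. The CHR letters stood in 67.6% of the kinesin and spindle promoters (23 of 34), in 66.7% of the G2/M promoters (28 of 42) and in 56.7% of the kinetochore promoters, against 11.8% of all (1074 of 9135). S phase and origin firing promoters held them in 14.8% and 17.6%. The E2F letters showed the reverse order, with 82.4% of the origin firing promoters (14 of 17), 48.1% of the S phase promoters (13 of 27), 5.88% of the kinesin and spindle promoters and 4.41% of all. CCAAT boxes were found in 73.5% of the kinesin and spindle promoters and 73.8% of the G2/M promoters, but also in 64.7% of the origin firing and 59.3% of the S phase promoters and in 46.7% of the kinetochore promoters, against 38.1% of all, so they did not separate the late from the early lists. Among the 253 genes called higher only with rat 3, of which 96 belong to the cell cycle lists, 32.8% of promoters held the CHR letters. Lists outside the cell cycle varied widely. The share was 31.2% for sexually dimorphic liver genes (10 of 32), 27.6% for complement and coagulation (8 of 29) and 0% for hepatocyte transcription factors and nuclear receptors (0 of 22). These shares describe letters in a fixed window and were not tested.

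Outside the cell cycle, several genes were by far the highest in rat 3. Acot1, a cytosolic acyl-CoA thioesterase and PPARα target with near-identical copies that may share reads, measured 0.765, 1.91, 2.11, 0.572 and 1.49 CPM in the controls and 3.99, 0.602, 217, 11.9 and 2.09 CPM in the treated rats. For Acot1 the log2 fold change was 5.10 ± 1.14 with all 5 (adjusted p = 0.0114), and without rat 3 it was 1.71 ± 0.76 (adjusted p = 0.138). H19, an imprinted RNA of fetal liver, measured 0.661, 1.61, 0.528, 0.437 and 0.334 CPM in the controls and 1.05, 0.559, 48.4, 0.550 and 0.902 CPM in the treated rats. Rat 3 alone was above the control range for H19, and for Acot1 rats 1 and 4 lay above it too, at far lower levels. H19 differed from the controls by 3.85 ± 0.91 on the log2 scale with all 5 (adjusted p = 0.0145) and by 0.05 ± 0.40 without rat 3 (adjusted p = 0.957). Aqp7, a glycerol channel, stood at 6.67 CPM in rat 3, 0.116 to 0.817 CPM in the other treated rats and 0.0375 to 0.297 CPM in the controls. Acot1 and Aqp7 were the only 2 of 51 PPARα targets tested that were called with rat 3, and 0 were called without it by edgeR or DESeq2, with 8 at an unadjusted p under 0.05 by edgeR (median log2 fold change 0.13 and 0.07). Both PPARα shares lay below the 4.91% and 6.08% of all genes tested called by edgeR with and without rat 3. The plasma protein and acute phase list had a score of -1.11 in rat 3 against -0.12 to 0.14 in the other treated rats, and the amino acid catabolism and urea cycle list -0.79 against -0.11 to 0.28. Complement and coagulation genes scored -0.76 in rat 3, and sexually dimorphic liver genes -1.18.

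A second group of genes rose in all 5 treated rats. Of the 287 genes called in both fits, 174 had a mean of at least 1 CPM and no overlap between the 5 treated and the 5 control rats, 49 of them higher and 125 lower. Over all genes tested, all 5 treated rats were above all 5 controls for 2.86% and below them for 3.95%. Without rat 3 these shares were 7.87% and 9.09%. The 10 rises from Tspo to Acsm2a described next, and the 10 falls Pcdh7, Nfix, Esr1, A1i3, Dab1, Abhd2, LOC501038, Xk, St3gal1 and Rxra, had the largest fold changes without rat 3 among those 174, so their size is a description.

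Tspo, the outer mitochondrial membrane translocator protein, measured 2.99, 2.78, 5.08, 2.86 and 4.27 CPM in the controls and 7.21, 12.5, 20.9, 12.6 and 8.22 CPM in the treated rats. The lowest treated rat was above the highest control, and rat 3 was the highest. Tspo had a log2 fold change of 1.77 ± 0.34 with rat 3 (adjusted p = 0.00834) and of 1.43 ± 0.33 without it (adjusted p = 0.0131). Pdlim4, an actin-associated LIM protein, measured 0.661, 0.450, 0.429, 0.370 and 0.705 CPM in the controls and 1.55, 1.25, 2.27, 1.21 and 1.65 CPM in the treated rats. In the fit of all 5 treated rats Pdlim4 changed by 1.60 ± 0.28 on the log2 scale (adjusted p = 0.00834), and by 1.37 ± 0.28 without rat 3 (adjusted p = 0.012). Fhl2, a LIM-only cofactor, measured 0.661, 0.788, 1.19, 1.04 and 0.817 CPM in the controls and 1.98, 1.59, 2.11, 2.45 and 2.01 CPM in the treated rats, with no overlap. Fhl2 differed from the controls by 1.17 ± 0.25 on the log2 scale with all 5 (adjusted p = 0.0103) and by 1.09 ± 0.26 without rat 3 (adjusted p = 0.0152). Mtmr11, a myotubularin-related protein, measured 3.20, 2.06, 2.34, 2.99 and 3.86 CPM in the controls and 8.84, 5.33, 8.29, 6.63 and 5.44 CPM in the treated rats, again with no overlap and with rat 1 the highest. Its change was 1.26 ± 0.23 with rat 3 (adjusted p = 0.00834) and 1.12 ± 0.24 without it (adjusted p = 0.012). Hspb1, the small heat shock protein HSP27, measured 18.3, 7.91, 19.5, 4.00 and 18.2 CPM in the controls and 41.9, 22.5, 24.2, 92.1 and 46.8 CPM in the treated rats, with wide spread in both groups. Hspb1 differed from the controls by 1.74 ± 0.51 on the log2 scale with all 5 (adjusted p = 0.0363) and by 1.85 ± 0.52 without rat 3 (adjusted p = 0.0268). It was the only 1 of 31 heat shock and unfolded protein response genes called by edgeR in either fit, and DESeq2 called 1 with rat 3 and 2 without it.

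The rise of Tnfsf13, the cytokine APRIL, rested in size on treated rat 4. Its levels were 5.91, 5.63, 6.76, 6.36 and 5.49 CPM in the controls and 7.76, 7.96, 10.2, 65.8 and 7.40 CPM in the treated rats, so all treated rats exceeded all controls but only rat 4 did so by far. The change in Tnfsf13 was 1.71 ± 0.54 on the log2 scale with rat 3 (adjusted p = 0.0492) and 1.83 ± 0.55 when rat 3 was left out (adjusted p = 0.0352). Catsperg1, a sperm ion channel subunit, had its highest level of 13.1 CPM in rat 1 and 1.25 ± 0.26 without rat 3 (adjusted p = 0.012). Krt20, an epithelial keratin, and Rem1, a small GTPase, rose by 1.30 ± 0.40 (adjusted p = 0.0362) and 1.12 ± 0.32 (adjusted p = 0.0285) in the same fit, from control levels under 1 CPM. Acsm2a, a medium-chain acyl-CoA synthetase whose near-identical copies may share reads, measured 7.90, 6.30, 3.40, 1.95 and 9.69 CPM in the controls and 13.1, 18.5, 92.5, 11.3 and 30.7 CPM in the treated rats. Acsm2a differed from the controls by 2.51 ± 0.59 on the log2 scale with all 5 (adjusted p = 0.0147) and by 1.60 ± 0.53 without rat 3 (adjusted p = 0.048). Its level did not follow the dose. At 1000 mkd Acsm2a overlapped with the controls, at 3.72 to 14.0 CPM (mean 7.80), while the means at 500 and 750 mkd were 20.7 and 26.2 CPM.

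Taldo1, transaldolase of the pentose phosphate pathway, measured 65.4, 67.0, 74.3, 87.2 and 64.1 CPM in the controls and 115, 128, 135, 93.1 and 111 CPM in the treated rats. Fitted with and without rat 3, Taldo1 gave log2 fold changes of 0.70 ± 0.11 (adjusted p = 0.00458) and 0.58 ± 0.11 (adjusted p = 0.012). The value without rat 3 fell just under the 1.5-fold minimum, although the groups did not overlap. Cyp2e1, a pericentral cytochrome P450 that oxidises many small solvents, measured 2624, 2116, 2088, 2169 and 2144 CPM in the controls and 4385, 4439, 3119, 3335 and 3238 CPM in the treated rats. All treated rats were above all controls. For Cyp2e1 the log2 fold change was 0.73 ± 0.21 with all 5 (adjusted p = 0.0326), and without rat 3 it was 0.72 ± 0.21 (adjusted p = 0.0304). Cyp2e1 was the only 1 of 29 zonation genes and of 10 hepatocyte markers that was called. Acot13, a mitochondrial thioesterase, also rose in both fits (0.65 ± 0.15 and 0.66 ± 0.15), at 15.9 to 18.7 CPM in the other treated rats, 13.0 CPM in rat 3 and 8.70 to 11.6 CPM in the controls. Igfbp7, a secreted binding protein, rose by 0.80 ± 0.22 and 0.74 ± 0.23. Of the NRF2 and glutathione genes, 3 of 47 were called with rat 3 (Gstp1, Taldo1 and Ggt1) and Gstp1 alone without it by edgeR, while DESeq2 called 3 in each. By edgeR, 4.91% of all genes tested were called with rat 3 and 6.08% without it. Nqo1, the classical NRF2 target, did not pass (0.54 ± 0.32, adjusted p = 0.28).

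Markers of fetal, progenitor and preneoplastic liver held several of the rises. With rat 3, 11 of 27 tested were called higher (median log2 fold change 0.95), 4 were called without it (median 0.61), and 0 were called lower. The shares higher over all genes tested were 3.16% with rat 3 and 1.12% without it. The list's score was 0.72, 0.36, 1.41, 0.50 and 0.27 in treated rats 1 to 5 and -0.08 to 0.10 in the controls, so the groups did not overlap. Gstp1, the placental glutathione transferase that marks preneoplastic foci in rat liver, measured 4.87, 4.13, 4.92, 3.23 and 4.42 CPM in the controls and 9.42, 8.26, 10.1, 5.83 and 8.04 CPM in the treated rats. Gstp1 had a log2 fold change of 0.95 ± 0.22 with rat 3 (adjusted p = 0.0124) and of 0.81 ± 0.22 without it (adjusted p = 0.0233). Krt8, a keratin of simple epithelia with retrogene copies that may share reads, measured 247, 123, 218, 163 and 192 CPM in the controls and 389, 314, 305, 367 and 290.2 CPM in the treated rats. In the fit of all 5 treated rats Krt8 changed by 0.82 ± 0.21 on the log2 scale (adjusted p = 0.0208), and by 0.79 ± 0.22 without rat 3 (adjusted p = 0.0258). Neither gene overlapped between groups. Its partner Krt18 rose by 0.61 ± 0.16 and 0.61 ± 0.17, and Muc1, an epithelial mucin, by 1.17 ± 0.28 and 1.05 ± 0.29, with treated rat 2 inside the control range of Muc1. Afp, the fetal form of albumin, did not pass (0.40 ± 0.20, adjusted p = 0.19), nor did Gpc3 (1.31 ± 0.44, adjusted p = 0.0641). The cholangiocyte markers moved in the same rats, with scores of 0.52 to 0.62 in the 4 other treated rats and -0.11 to 0.15 in the controls, and their part in the rise of this list was not tested.

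**Figure D3:**
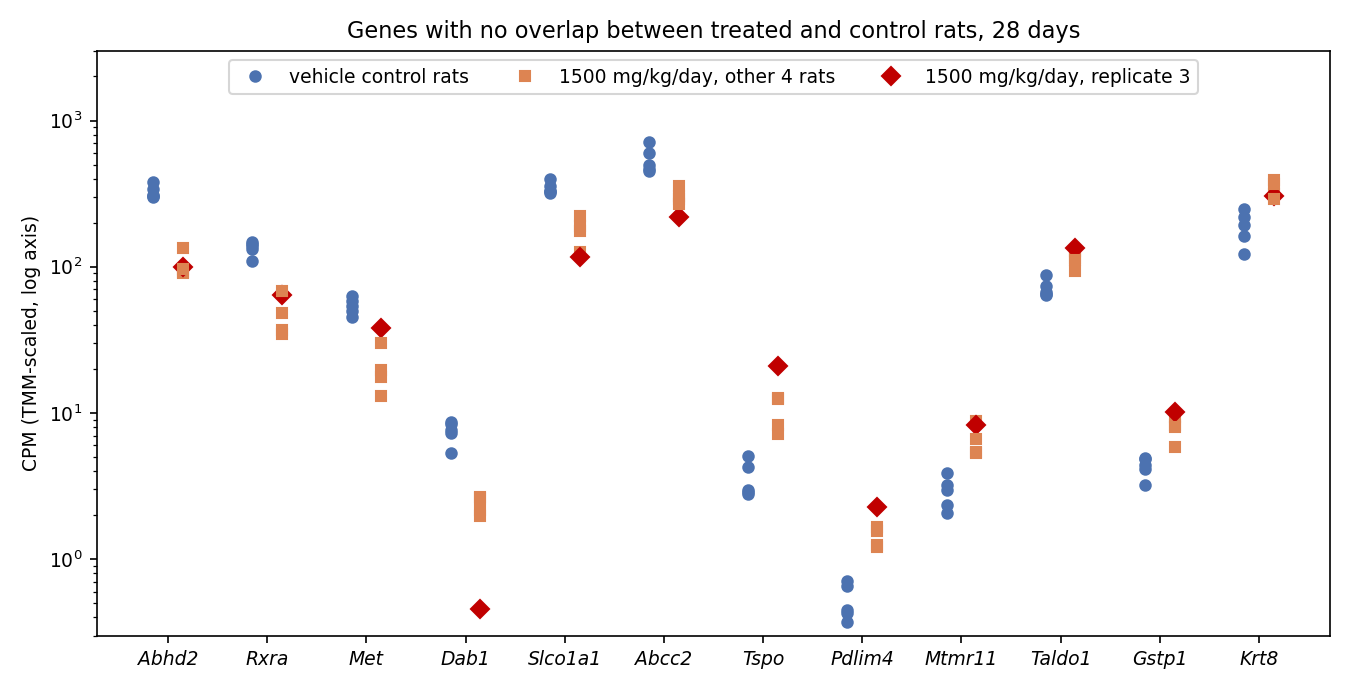
CPM on a log axis in each of the 10 rats for 12 genes whose groups did not overlap, with controls and treated rats side by side and rat 3 marked. Falls (Abhd2, Rxra, Met, Dab1, Slco1a1 and Abcc2) and rises (Tspo, Pdlim4, Mtmr11, Taldo1, Gstp1 and Krt8) leave a gap between the groups with rat 3 included.

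Falls common to all treated rats included genes of nuclear receptors, growth factor receptors and transporters. Rxra, the retinoid X receptor that pairs with most metabolic nuclear receptors, measured 143, 148, 132, 139 and 109.7 CPM in the controls and 37.1, 34.4, 64.1, 68.1 and 48.3 CPM in the treated rats. The highest treated rat was below the lowest control. The change in Rxra was -1.41 ± 0.29 on the log2 scale with rat 3 (adjusted p = 0.0088) and -1.58 ± 0.32 when rat 3 was left out (adjusted p = 0.012). Esr1, oestrogen receptor alpha, measured 9.39, 14.6, 8.35, 9.55 and 8.87 CPM in the controls and 3.53, 2.67, 8.23, 4.10 and 2.17 CPM in the treated rats, with rat 3 close under the lowest control. Esr1 differed from the controls by -1.29 ± 0.40 on the log2 scale with all 5 (adjusted p = 0.0466) and by -1.77 ± 0.41 without rat 3 (adjusted p = 0.0133). Rxra and Esr1 were the 2 of 31 hepatocyte transcription factors and nuclear receptors called with rat 3, and 4 were called without it, Nr5a2 among them. All were lower, on few genes. Of all genes tested, 1.76% were lower with rat 3 and 4.95% without it. Hnf4a, the leading hepatocyte factor, did not pass (-0.31 ± 0.14, adjusted p = 0.168). Nfix, a nuclear factor I protein, measured 15.4, 15.5, 12.6, 13.3 and 14.3 CPM in the controls and 3.49, 2.84, 12.0, 5.13 and 5.72 CPM in the treated rats, and here rat 3 lay just below the controls while the other 4 were far below. Fitted with and without rat 3, Nfix gave log2 fold changes of -1.28 ± 0.37 (adjusted p = 0.0359) and -1.78 ± 0.37 (adjusted p = 0.012).

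Among receptors, Met, the hepatocyte growth factor receptor, measured 53.9, 62.6, 58.6, 49.9 and 45.4 CPM in the controls and 17.5, 13.2, 38.0, 30.0 and 19.7 CPM in the treated rats. For Met the log2 fold change was -1.19 ± 0.31 with all 5 (adjusted p = 0.0234), and without rat 3 it was -1.49 ± 0.33 (adjusted p = 0.0124). Egfr, the receptor of EGF and TGFα, measured 163, 172, 190.1, 214 and 165 CPM in the controls and 93.9, 134, 89.0, 142 and 94.6 CPM in the treated rats. Egfr had a log2 fold change of -0.71 ± 0.21 with rat 3 (adjusted p = 0.0401) and of -0.71 ± 0.23 without it (adjusted p = 0.0465). For both genes all 5 treated rats were below all 5 controls. Erbb3, the neuregulin receptor, fell by 0.84 ± 0.18 and 0.93 ± 0.20 on the log2 scale. Insr, the insulin receptor, measured 43.9, 54.6, 50.1, 45.0 and 38.4 CPM in the controls and 19.7, 15.3, 36.5, 25.5 and 28.9 CPM in the treated rats, without overlap, and the change was -0.88 ± 0.26 with rat 3 and -1.12 ± 0.28 without it. Ghr, the growth hormone receptor, measured 563, 532, 547, 623 and 419.9 CPM in the controls and 313, 402, 268, 426 and 323 CPM in the treated rats, with 1 treated rat (rat 4) above the lowest control. Its change was -0.63 ± 0.17 (adjusted p = 0.0249) and -0.62 ± 0.18 (adjusted p = 0.0272). Of 31 growth factor and receptor genes, 4 were lower with rat 3 (Met, Egfr, Erbb3 and Inhbc) and 5 without it (Met, Egfr, Erbb3, Tgfbr1 and Tgfbr2), and 0 were higher in either fit. The shares lower over all genes tested were 1.76% with rat 3 and 4.95% without it.

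Slco1a1 and Abcc2, transporters of bile acids and drugs, were lower in both fits. Slco1a1, a sinusoidal uptake transporter, measured 328, 355, 399.6, 328 and 319 CPM in the controls and 126, 189, 116, 223 and 176 CPM in the treated rats. In the fit of all 5 treated rats Slco1a1 changed by -1.06 ± 0.22 on the log2 scale (adjusted p = 0.00911), and by -1.02 ± 0.23 without rat 3 (adjusted p = 0.0126). Abcc2, the canalicular exporter of conjugates, measured 603, 469, 716, 452 and 498 CPM in the controls and 356, 303, 218, 292 and 267 CPM in the treated rats. Abcc2 differed from the controls by -0.93 ± 0.20 on the log2 scale with all 5 (adjusted p = 0.0101) and by -0.91 ± 0.21 without rat 3 (adjusted p = 0.014). No treated rat reached the lowest control for either. In 31 bile acid genes the counts were 1 higher and 2 lower with rat 3, and 0 higher and 3 lower without it. Abcc3, a basolateral exporter, was the 1 that was higher, with rat 3 only. These few calls stand against 4.91% of all genes tested called with rat 3 and 6.08% without it. Ugt1a1, the bilirubin glucuronosyltransferase whose locus shares exons with its neighbours, was lower in both fits. Cyp17a1, a steroid hydroxylase, measured 33.3, 38.0, 69.3, 79.2 and 41.4 CPM in the controls and 22.6, 22.8, 40.3, 27.9 and 19.8 CPM in the treated rats, with a wide control range and with rat 3 inside it. The change in Cyp17a1 was -0.97 ± 0.29 on the log2 scale with rat 3 (adjusted p = 0.0433) and -1.23 ± 0.31 when rat 3 was left out (adjusted p = 0.0177).

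The other named falls were in genes with other roles. Abhd2, a lipid hydrolase, measured 299, 307, 378, 339 and 308 CPM in the controls and 91.1, 91.8, 99.5, 134 and 97.1 CPM in the treated rats. Fitted with and without rat 3, Abhd2 gave log2 fold changes of -1.67 ± 0.33 (adjusted p = 0.00834) and -1.72 ± 0.37 (adjusted p = 0.012). Pcdh7, a protocadherin, measured 3.72, 3.30, 4.19, 4.10 and 3.56 CPM in the controls and 0.892, 0.731, 1.03, 1.39 and 0.825 CPM in the treated rats, about the same in rat 3 as in the rest. For Pcdh7 the log2 fold change was -1.95 ± 0.41 with all 5 (adjusted p = 0.00911), and without rat 3 it was -2.03 ± 0.45 (adjusted p = 0.0124). Dab1, an adaptor of lipoprotein receptor signalling, measured 7.30, 8.40, 7.69, 5.32 and 8.65 CPM in the controls and 2.64, 1.98, 0.459, 2.67 and 2.17 CPM in the treated rats, with rat 3 the lowest. Dab1 differed from the controls by -1.92 ± 0.38 on the log2 scale with all 5 (adjusted p = 0.00834) and by -1.72 ± 0.35 without rat 3 (adjusted p = 0.012). None of these 3 genes overlapped between groups. A1i3, an alpha-1 inhibitor plasma protein with close paralogs that may share reads, ranged over 3029 to 8711 CPM in the controls, 1341 to 2900 CPM in the other treated rats and 682 CPM in rat 3. Its lowest control, rat 5, was close to the highest treated rat, and the change was -1.88 ± 0.42 (adjusted p = 0.0122). Xk, a membrane transport protein, fell by 1.40 ± 0.31 and 1.60 ± 0.34 on the log2 scale, and St3gal1, a sialyltransferase, by 1.25 ± 0.36 and 1.59 ± 0.38. LOC501038, an unnamed locus that may share reads with copies, had -1.65 ± 0.46 without rat 3.

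Some plasma protein and lipid genes were called lower. F5, coagulation factor V, measured 359, 355, 319, 299 and 279 CPM in the controls and 183, 154, 185, 222 and 216 CPM in the treated rats, with no overlap. F5 had a log2 fold change of -0.75 ± 0.15 with rat 3 (adjusted p = 0.00863) and of -0.80 ± 0.17 without it (adjusted p = 0.012). Apob, the structural protein of very low density lipoprotein, measured 10754, 11343, 12700, 9776 and 8293 CPM in the controls and 5737, 6358, 5887, 7752 and 6717 CPM in the treated rats, also with no overlap. Apob differed from the controls by -0.70 ± 0.21 on the log2 scale with all 5 (adjusted p = 0.0374) and by -0.74 ± 0.22 without rat 3 (adjusted p = 0.035). Elovl2, a fatty acid elongase, changed by -0.77 ± 0.21 and -0.94 ± 0.22. Of 31 fatty acid and triglyceride genes, 2 were lower with rat 3 (Elovl2 and Apob) and 4 without it (with Acaca and Elovl5), and 0 were higher. These shares lay above the 1.76% and 4.95% of all genes tested that were lower in the same fits, on few genes. Pdk1, a mitochondrial kinase that inhibits pyruvate dehydrogenase, was lower in both fits (-0.61 ± 0.15 and -0.59 ± 0.15), while Aldoc and Gapdh were higher, the last with many pseudogenes that may share its reads. Of 38 glucose metabolism genes 2 were higher and 1 lower in each fit. The shares called over all genes tested were 4.91% with rat 3 and 6.08% without it. In the 39 complement and coagulation genes 3 were lower in each fit, with F5 among them in both, and in the 39 acute phase and plasma protein genes 1 was lower in each, against 1.76% of all genes tested with rat 3 and 4.95% without it.

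Messages of ribosomal proteins and of the respiratory chain had raised scores in the 4 treated rats other than rat 3. Of 69 cytosolic ribosomal protein genes 0 were called by edgeR in either fit (33 with rat 3 and 36 without it at an unadjusted p under 0.05, and 0 and 1 called by DESeq2), but their median log2 fold change was 0.30 with rat 3 and 0.31 without it, against 0.07 and -0.0015 over all genes. Their score was 0.23, 0.47, -0.03, 0.26 and 0.28 in treated rats 1 to 5 and -0.11 to 0.21 in the controls, so that rat 3 alone of the treated rats was inside the control range. The 48 respiratory chain genes, 0 of which were called by edgeR or DESeq2 (25 and 31 at an unadjusted p under 0.05 by edgeR), had scores of 0.23, 0.47, -0.21, 0.23 and 0.26 in the treated rats and -0.15 to 0.13 in the controls, with rat 3 the lowest of all 10. The respiratory chain score was also raised at lower doses, so its rise was not particular to 1500 mkd. It was 0.131 to 0.422 at 300 mkd, 0.12 to 0.50 at 500 mkd, 0.08 to 0.42 at 750 mkd and -0.02 to 0.32 at 1000 mkd. The ribosomal score overlapped with the controls at each of these doses. The list of ribosomal genes was made after the data had been seen. With the ribosomal score as a covariate, 327 genes were called with rat 3 (296 higher and 31 lower) and 1 was called without it, where 1467 of the 11303 genes had an unadjusted p under 0.05. The 1 gene was Itpr2, an inositol trisphosphate receptor, named for that reason after its values were seen, which changed by -0.63 on the log2 scale with the covariate and by -0.93 without it. Of the 174 non-overlapping genes above, 42 stayed called with rat 3 and the covariate, 19 higher and 23 lower. The score differs between the groups themselves, so covariate and treatment cannot be told apart.

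**Figure D4:**
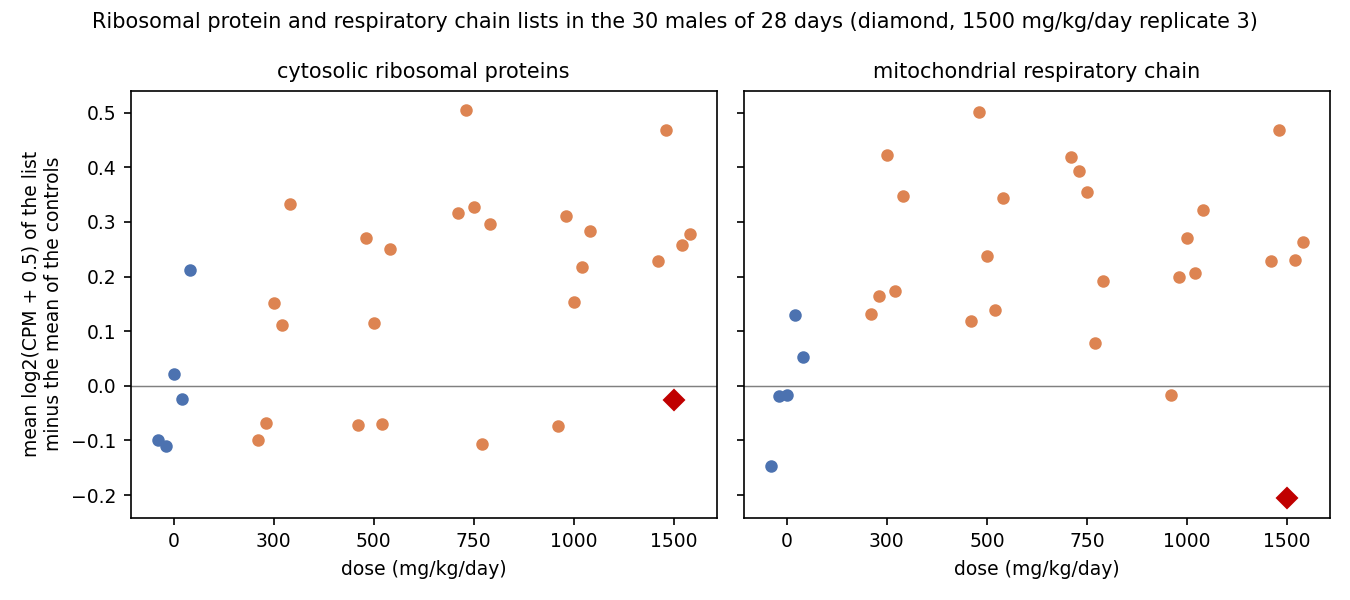
Scores of the 69 ribosomal protein genes and, in the other panel, of the 48 respiratory chain genes, each the mean log2(CPM + 0.5) relative to the control mean, in each male of 28 days by dose in mkd. In both panels rats 1, 2, 4 and 5 at 1500 mkd lie at 0.23 to 0.47, and rat 3, the diamond, lies at -0.03 and -0.21, while the controls span -0.11 to 0.21 and -0.15 to 0.13. At 300 mkd the rats span -0.10 to 0.33 for ribosomal proteins and 0.13 to 0.42 for the respiratory chain.

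Leaving rat 3 out added falls more than rises. Cmtm4, a membrane protein, measured 3.13, 3.64, 2.80, 2.69 and 1.89 CPM in the controls and 0.853, 0.473, 3.05, 0.879 and 1.39 CPM in the treated rats, so rat 3 was inside the control range and the other 4 were below it. In the fit of all 5 treated rats Cmtm4 changed by -1.06 ± 0.36 on the log2 scale (adjusted p = 0.062), and by -1.69 ± 0.33 without rat 3 (adjusted p = 0.012). Mfhas1, a leucine-rich repeat protein, measured 2.57, 5.14, 4.22, 3.43 and 2.41 CPM in the controls and 0.427, 0.430, 7.13, 2.53 and 0.825 CPM in the treated rats. Rat 3 was the highest of all 10, and rat 4 lay inside the control range. The change in Mfhas1 was -0.63 ± 0.61 on the log2 scale with rat 3 (adjusted p = 0.517) and -1.81 ± 0.59 when rat 3 was left out (adjusted p = 0.0472).

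Tgfbr2, the type II TGFβ receptor, measured 68.5, 74.5, 74.3, 63.1 and 53.5 CPM in the controls and 21.8, 18.8, 63.9, 38.3 and 29.7 CPM in the treated rats, with rat 3 inside the control range and the other 4 below it. Fitted with and without rat 3, Tgfbr2 gave log2 fold changes of -0.95 ± 0.33 (adjusted p = 0.0698) and -1.36 ± 0.33 (adjusted p = 0.0162). Parp14 and Trim21, members of the interferon list, were lower only without rat 3 (-1.25 ± 0.24, adjusted p = 0.012, and -0.89 ± 0.22, adjusted p = 0.0165). Rises that appeared without rat 3 were few. Gadd45b, a stress and growth arrest gene, measured 4.07, 5.21, 2.94, 3.83 and 2.56 CPM in the controls and 7.60, 2.80, 3.48, 20.4 and 13.2 CPM in the treated rats, high in rats 1, 4 and 5 only. Gadd45b differed from the controls by 1.35 ± 0.49 on the log2 scale with all 5 (adjusted p = 0.0815) and by 1.51 ± 0.49 without rat 3 (adjusted p = 0.0451). Prodh, the proline oxidase, was low in rat 3 at 26.2 CPM and at 154 to 199.5 CPM in the other 4 (controls 56.2 to 139). It changed by 1.03 ± 0.29 without rat 3 (adjusted p = 0.0273). Cntfr, a cytokine receptor, and Vom2r44, a vomeronasal receptor gene with close copies that may share reads, rose by 1.07 ± 0.36 and 1.03 ± 0.27 without rat 3, at levels of 0.303 to 3.43 CPM.

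Falls called only with rat 3 were 14, and in the 5 with the largest fall at a mean of 1 CPM or more rat 3 was the lowest of all 10 rats. Bmf, a pro-apoptotic BH3-only protein, measured 35.9, 41.1, 38.1, 36.5 and 22.8 CPM in the controls and 23.9, 19.5, 8.39, 19.4 and 20.3 CPM in the treated rats. For Bmf the log2 fold change was -0.93 ± 0.28 with all 5 (adjusted p = 0.0432), and without rat 3 it was -0.81 ± 0.28 (adjusted p = 0.0554). Akap5, a kinase anchoring protein, Park2, the ubiquitin ligase parkin, and Fam46c, a poly(A) polymerase, had log2 fold changes of -1.41 ± 0.43, -0.74 ± 0.23 and -0.74 ± 0.23 with rat 3, and adjusted p of 0.0572, 0.0559 and 0.0544 without it.

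Ifit1, an interferon-induced antiviral gene, varied from rat to rat. It was at 0.0696, 0.0750, 0.132, 0 and 0.223 CPM in the controls, near or at 0, and at 0.233, 41.3, 18.1, 0.147 and 4.05 CPM in the treated rats. Rats 2, 3 and 5 were high, and rats 1 and 4 were within or next to the control range. edgeR called it in both fits (adjusted p = 0.0215 and 0.0227), and its fitted fold depends on the prior count. In the 46 interferon genes tested, 1 was called higher with rat 3 and 2 lower (Ifih1, an RNA sensor, and Eif2ak2, the kinase PKR), and without it 1 was called higher and 3 lower. Among all genes tested, 4.91% were called with rat 3 and 6.08% without it.

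Calls in the remaining lists stand against 4.91% of all genes tested with rat 3 and 6.08% without it. The CAR, PXR and AhR list and the growth hormone and IGF axis lay above these shares, on few genes each. CAR, PXR and AhR targets gave 2 higher and 2 lower of 41 with rat 3 (median log2 fold change 0.22), those higher being Cyp2e1 and Abcc3 and those lower Ugt1a1 and Abcc2. The growth hormone and IGF axis gave 2 higher and 2 lower of 23 with rat 3 (median log2 fold change -0.02), H19 and Igfbp7 against Ghr and Insr. Slco1a1 and Cyp17a1, both lower, were the 2 of 40 sexually dimorphic liver genes called in each fit. Of 60 amino acid catabolism and urea cycle genes 0 were called with rat 3 by edgeR (8 at an unadjusted p under 0.05, and 2 called by DESeq2), and 2 without it, Prodh higher and Aldh6a1 lower. Cholesterol synthesis gave 1 lower of 24, and 2 lower without rat 3 (median -0.41). The serine synthesis and ATF4 list gave 0 of 26 with rat 3 by edgeR (6 at an unadjusted p under 0.05, and 3 called by DESeq2) and 1 without it, Slc7a1, an arginine transporter, at 2.23, 0.938, 0.990, 0.908 and 7.43 CPM in the controls and 0.621, 0.731, 1.59, 0.989 and 0.902 CPM in the treated rats. The fall of Slc7a1 rested mainly on control rat 5 and less on control rat 1, and the other controls lay within the range of the treated rats. Antigen presentation (20 genes tested) and circadian clock genes (15) gave 0 in both fits by edgeR and by DESeq2, with 4 and 1 at an unadjusted p under 0.05 with rat 3. Counts of 0 by both tools with rat 3 also held for the Kupffer cell, T and NK cell, B cell, neutrophil, erythroid and endothelial marker lists, which held 3, 0, 0, 1, 1 and 1 genes at an unadjusted p under 0.05, and Timp1, a matrix protease inhibitor, was the 1 of 13 stellate cell and matrix markers called in either fit. Of the 5 cytotoxicity markers named in the study, S100a10 was called with rat 3 only.

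Several genes that the study names have not been described above. Cenpw, a centromere protein, stood at 11.1 CPM in rat 3, 0.0773 to 0.989 CPM in the other treated rats and 0.111 to 0.522 CPM in the controls, and it was called with rat 3 only (adjusted p = 0.0174 and 0.393). Prom1, the progenitor cell antigen CD133, measured 0.696, 0.675, 0.627, 0.572 and 0.817 CPM in the controls and 1.78, 0.817, 2.13, 1.65 and 0.851 CPM in the treated rats, with rat 2 level with the highest control, and was also called only with rat 3 (adjusted p = 0.0254 and 0.0631). Car3, carbonic anhydrase 3, measured 1091, 892, 938, 1859 and 158 CPM in the controls and 453, 620.1, 314, 536 and 421 CPM in the treated rats. Control rat 5 was the lowest of all, and the change did not pass (-1.08 ± 0.41, adjusted p = 0.0995). Hebp2, a haem-binding protein, measured 0.348, 0.375, 0.561, 2.56 and 0.557 CPM in the controls and 10.4, 0.559, 5.24, 2.05 and 1.13 CPM in the treated rats, high in rats 1 and 3 (adjusted p = 0.105). Akr1b8, Rnd1, Tes, Sod1, Sod2, Gpx1, Cyp1a1, Cyp1a2, Cyp2b1 and Cyp2b2 did not pass in either fit, with adjusted p of 0.155 to 0.848 with rat 3 and 0.0829 to 0.987 without it.

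Against the next lower dose, 1000 mkd, 0 of 11279 genes (0%) were called at 1500 mkd by edgeR, with 462 at an unadjusted p under 0.05, and DESeq2 called 1. In the same fit and against the same controls, 0 genes were called at 300 mkd, 0 at 500 mkd, 88 at 750 mkd (28 higher and 60 lower) and 311 at 1000 mkd (107 higher and 204 lower). At unadjusted p under 0.05 these doses gave 638, 1542, 2582 and 2959 genes. The count of 0 at 500 mkd does not mean that all genes stayed level there. Each rat at 500 mkd was below every control for Abhd2 (71.6 to 156 against 299 to 378 CPM). The same held for Rxra (41.4 to 95.6 against 110 to 148 CPM) and Met (16.1 to 33.8 against 45.4 to 62.6 CPM). Slco1a1 and Tspo overlapped with the controls at that dose. The doses share their controls, so their values are given side by side only. The kinesin and spindle score ranged from -0.03 to 0.33 at 300 mkd, 0.30 to 1.29 at 500 mkd, 0.63 to 1.51 at 750 mkd and 0.67 to 1.49 at 1000 mkd. At 1500 mkd it was 0.76 to 1.03 in rats 1, 2 and 4, so these 3 lay within the range of the 1000 mkd rats and rats 3 and 5 lay outside it on opposite sides. The log2 fold change of Rxra was -1.29 at 1000 mkd (adjusted p = 0.025), of Abhd2 -1.48 (adjusted p = 0.0245) and of Tspo 1.61 (adjusted p = 0.0212). That of Kif22 was 1.77 (adjusted p = 0.125) and did not pass. All these dose values come from a fit that includes rat 3, which enters the spread shared by all doses. The lower doses were not compared with the controls without rat 3, so the missed call does not show that Kif22 stayed level. All 1000 mkd rats had a kinesin and spindle score above the highest control score of 0.46.

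**Figure D5:**
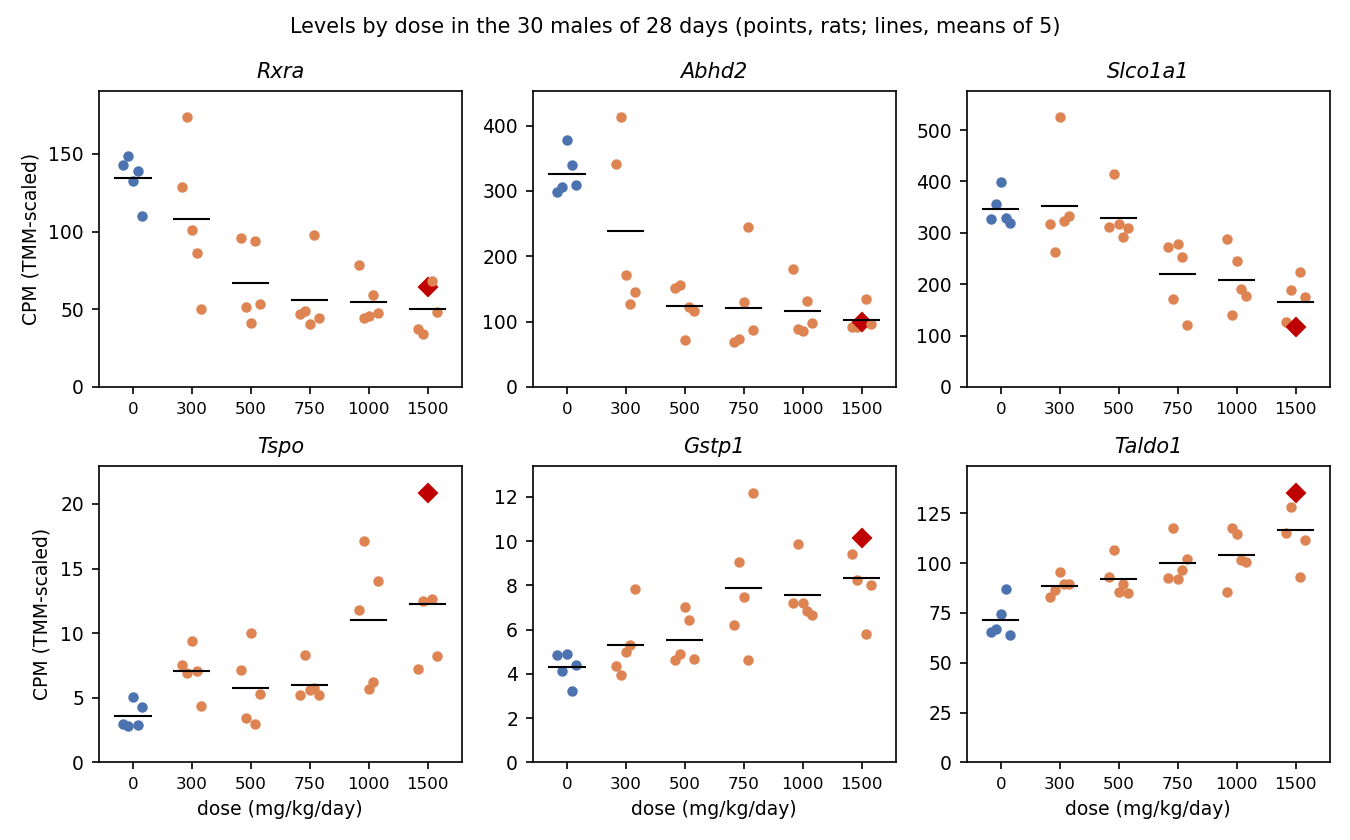
CPM of Rxra, Abhd2, Slco1a1, Tspo, Gstp1 and Taldo1 in each of the 30 males of 28 days by dose in mkd, with points for rats, lines for means of 5 and a diamond for rat 3. At 1500 mkd all 5 rats, rat 3 included, lie beyond the 5 controls in each panel.

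Whether the response differed from that after 7 days was tested in one fit over both times, whose controls are different rats. The interaction gave 0 of 11464 genes (0%) by edgeR, 538 at an unadjusted p under 0.05, and 1 by DESeq2. In that fit 7 genes were called after 7 days (5 higher and 2 lower) and 829 after 28 days (488 higher and 341 lower), and these 2 counts are not a test of a difference between the times. Kinesin and spindle scores after 7 days were 0.79, 0.62, 1.38, 1.43 and 1.82 in the treated rats and -0.42, -0.40, -0.19, 0.25 and 0.76 in the controls, which overlap, and no single rat stood apart as rat 3 did. Acot1 was among the genes called after 7 days (4.94, adjusted p = 0.0357).

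The response of males and of females to 1500 mkd for 28 days differed in 8 of 11621 genes (0.0688%), 4 with a higher log2 fold change in males (0.0344%) and 4 with a lower one (0.0344%). Without rat 3 the count was 768 (390 and 378), without treated female 5 it was 521, without control female 2 it was 107, and with only the 4 groups of the contrast it was 0 by edgeR (1327 at an unadjusted p under 0.05). It was also 0 by edgeR without treated male 2 or treated female 2 (1505 and 1553 at an unadjusted p under 0.05), 1 without treated female 3, 20 and 32 without treated females 1 and 4, 26 without control female 3, and 13 and 14 without control males 4 and 5. DESeq2 called 104. Itga6, a laminin-binding integrin, measured 4.75, 3.62, 4.27, 4.38 and 3.51 CPM in female controls and 9.81, 21.0, 9.76, 14.5 and 9.18 CPM in treated females, a rise without overlap. In males of 28 days it was 33.9, 21.9, 33.0, 26.4 and 26.5 CPM in the controls and 18.2, 17.6, 49.2, 19.1 and 13.0 CPM in the treated rats, below all controls except in rat 3. The difference of the log2 fold changes, males minus females, was -1.92 ± 0.37, adjusted p = 0.0135. Slc7a1 differed by -2.76 ± 0.60, adjusted p = 0.0444, with 1.41, 3.55, 4.00, 1.82 and 0.656 CPM in treated and 0.536, 1.40, 1.09, 0.820 and 0.507 CPM in control females. The male part of this difference rested mainly on control male 5, which was far above every other male of the 2 groups. Mgst1, a microsomal glutathione transferase, measured 3302, 2063, 2523, 2780 and 3616 CPM in female controls and 1874, 1229, 1385, 1774 and 2436 CPM in treated females. It fell in females (-0.72) and stood at 0.27 in males, where it did not pass, with a difference of 0.99 ± 0.19, adjusted p = 0.0135. Sowahc, Wdr1, Iah1, Camk1 and Vps16 were the other 5, at -1.23, -0.59, 1.14, 0.78 and 0.75.

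In treated females no rat stood above the rest in cell cycle scores as rat 3 did in males. The kinesin and spindle score was 1.86, 2.01, 2.10, 2.06 and 0.74 in treated females and -0.05, -0.04, 0.19, -0.20 and 0.10 in female controls, so all 5 treated females were above all controls, with 4 close together and the fifth lower, and 37 of the 39 genes were called higher. With rat 3, 0 of the 39 were called for a difference between sexes by edgeR (2 at an unadjusted p under 0.05) or DESeq2. Without rat 3, edgeR called 16, all with the lower log2 fold change in males. Ribosomal protein scores were -0.10, -0.26, -0.64, -0.31 and 0.13 in treated females and 0.15, -0.18, 0.07, -0.10 and 0.07 in female controls, so that treated females 2, 3 and 4 lay below all female controls and the other two inside their range. In treated males the scores of rats 1, 2, 4 and 5 lay above all male controls. Of these 69 genes 0 were called for a sex difference by edgeR with rat 3 (46 at an unadjusted p under 0.05), 6 by DESeq2, and 18 by edgeR without rat 3, all with the higher log2 fold change in males. With rat 3 their median difference, males minus females, was 0.55.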

How the data were processed

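Liver RNA of 10 male rats (5 at 1500 mkd, 5 controls) was measured by sequencing of poly(A) libraries (TruSeq Stranded mRNA). Per the study's methods and labels, the authors trimmed reads with Trimmomatic, aligned them with Bowtie2 to Rn6 and counted them per gene model with HTSeq, and deposited raw counts. Tool versions and the strand setting of the counting are not given in the sources used here, and Bowtie2 does not align across splice junctions. The authors' own calls used DESeq2 at the same fold and FDR limits as here.

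The 5 HTSeq rows that name no gene (40.0 to 42.6% of reads in controls, 40.3 to 46.6% in treated rats) entered neither the library sizes nor the fits, and 0 columns were of no sample. Counts were tested with edgeR 4.0.16 (TMM, filterByExpr, glmQLFit and glmQLFTest, R 4.3.3) in one fit over the 30 males of 28 days, or 29 without treated replicate 3. All adjusted p are Benjamini-Hochberg values over all genes tested, two-sided, and ± is the SE, the absolute log2 fold change divided by the square root of F. CPM are counts-per-million of TMM-scaled library sizes, scaled anew for the time and sex fits, and one value is given per rat, replicates 1 to 5 in order. Interactions with time and sex were fitted over 60 rats each. Alternatives used DESeq2 1.42.0 and limma 3.58.1 voom. Scripts were tested on simulated data.

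Gene names and promoters came from RefSeq (GRCr8), and 14821 of 17337 listed genes had a symbol in it. Of 1305 entries in 44 lists (35 of pathways, 9 of cell type markers) 1227 matched a listed gene. The members, lists and named genes were chosen with earlier results of these data known. The rule named, among genes averaging 1 CPM or more, the most changed called in both fits without overlap (10 each way), only with replicate 3 (5 each way) and only without it (3 each way), the 2 called members of each list with the lowest p, the 3 most changed each way in the other comparisons, genes named in the study, and members of a list described as a whole. Replicate numbers are shared between groups but same-numbered rats did not deviate together, so no pairing was used. Some named genes are not reported here. Where nothing ties replicates to litters or days, p-values measure the spread between these rats.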

Additional observations from a re-analysis of the deposited data

Results flagged for a closer look

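A rat was singled out where its gap to the nearest rat of its group, divided by the group's range, passed Dixon's limit for 5 samples (0.71). For genes the gap and range were taken on log2(CPM + 0.5), while the levels below are printed in CPM. Chance singles out about 1 in 20 groups that were chosen without regard to their values. Here 90 groups of list scores and 204 groups of gene levels were looked at. The lists overlap and were written with earlier results known, and some genes were named because their call needed rat 3. That share is therefore no baseline for how often rat 3 was singled out, and the items below are a description. Rat 3 was singled out in its group for the score (mean log2 CPM relative to the controls) of DREAM and proliferation transcription factors (1.18), G2/M phase (3.86), S phase (1.75), acute phase and plasma proteins (-1.11), centromere and kinetochore (3.24), cholangiocyte markers (1.11), complement and coagulation (-0.755), cyclin-dependent kinase inhibitors (1.32), homologous recombination and Fanconi repair (2.31), kinesins and spindle (4.54), replication-dependent histones (1.77) and sexually dimorphic liver genes (-1.18). Control rat 4 was singled out for T and NK cell markers (-0.402) and neutrophil markers (-0.363), and control rat 5 for bile acid synthesis and transport (-0.217).

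By gene, rat 3 was singled out, in CPM, for Bmf 8.39, Cdc45 8.45, Cdc7 3.91, Cdkn2c 19.4, Cenpt 25.1, Chek2 12.0, Dab1 0.459, Foxm1 43.3, H19 48.4, H2afx 152, Hist1h4b 121, Hist3h2a 45.9, Itga6 48.5, Kif22 100.2, Mxd3 4.16, Ndc80 19.1, Parpbp 24.8, Rrm2 30.0, Spag5 45.2, Ttk 46.7 and Vom2r44 0.405. Mki67, Cdk1, Ccnb1, Aurkb and Acot1 did not pass on the log2 scale, although rat 3 was by far the highest for them in CPM. Treated rat 4 was singled out for Abhd2 134 and Tnfsf13 65.8 CPM. In the controls, rat 1 was for Cyp2e1 2624 and Nqo1 7.17 CPM, rat 2 for Esr1 14.6 CPM, rat 4 for Hebp2 2.56 CPM and rat 5 for A1i3 3029, Bmf 22.8, Cyp2b2 2.71 and Vom2r44 0.891 CPM.

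The response differed between the sexes by the interaction test of edgeR. The log2 fold change of males minus that of females was -1.92 for Itga6, -2.76 for Slc7a1, -1.23 for Sowahc and -0.590 for Wdr1, and 1.14 for Iah1, 0.991 for Mgst1, 0.776 for Camk1 and 0.752 for Vps16.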

How the results depend on the processing

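With all 5 treated rats the count of 554 genes became 210 (43 higher and 167 lower) when only the 2 groups of the contrast were fitted, 944 (361 and 583) in limma voom with quality weights, and 327 with the ribosomal score as covariate, an alternative added after seeing the data. DESeq2 gave 741 (399 and 342), no filter 547 (276 and 271), at least 10 counts in every rat 463 (241 and 222) and DESeq2 size factors 555 (325 and 230), which move the share of rises by over 10 percentage points except the last. Leaving out single rats gave 226 to 687, with 226 without control 2, 312 without treated rat 1, 343 without control 3 and 366 without control 4.

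Without rat 3 the count of 687 became 1 with the covariate, and 522 to 1019 under the other alternatives. Leaving out a further rat gave 0 to 738. It was 0 by edgeR without treated rat 1 or 2 (2671 and 2520 genes at an unadjusted p under 0.05), 284 without control 2, 396 without treated rat 5 and 416 without control 3. The falls seen without rat 3 thus depend on treated rats 1 and 2 in number of calls.

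The count against 1000 mkd was 1 under DESeq2 and 0 each time without single rats. The change from 7 to 28 days gave 1 under DESeq2 and 0 to 1 without single rats. The sex difference of 8 genes became 104 under DESeq2, 0 with only the groups of the contrast by edgeR (1327 at an unadjusted p under 0.05), and 0 to 768 without single rats: 768 without rat 3, 521 without treated female 5 and 107 without control female 2.

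Same-numbered rats did not deviate together (correlations of -0.29 to 0.29, and 2 of 5 treated rats closest to their own number). The replicate block gave 483 genes (272 and 211) with rat 3 and 732 without it.

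Over the 102 named genes, 4 of 1811 recomputed values with rat 3 (3 genes) had the opposite sign, 321 lost the call (63 genes) and 24 gained one. Without rat 3, 32 of 1709 values (5 genes) had the opposite sign, 283 lost the call and 48 gained one. The genes with an opposite sign were called neither in the reported fit nor under that alternative.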
